A study of Mus musculus with 6 samples.

Results

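Chemokines are small secreted proteins that guide leukocytes, and they are sorted by the spacing of their first cysteines into CC and CXC families. They signal through receptors with 7 membrane passes that couple to inhibitory G proteins, and a receptor often reads several ligands. In retina with dying photoreceptors, ligands such as Ccl2 are known to be made by Müller glia and microglia and to draw in monocytes. The genes described here are all those whose single symbol in the platform annotation begins with Ccl, Cxcl, Ccr or Cxcr and a digit. There were 46 such genes among 18193 named genes, read by 70 of 45037 probe sets. A gene read by several probe sets is given at its brightest, by the mean of all 6 arrays. The 46 comprised 18 CC ligands, 13 CXC ligands, 10 CC receptors and 5 CXC receptors.

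RNA was taken from whole retinas of mice about 4 weeks old and hybridised to Affymetrix arrays. Of these, 3 arrays held prCAD -/- retina, without the photoreceptor cadherin that Cdhr1 encodes, and 3 held retina of wild type mice of strain 129. The sources used here do not give the substrain of the wild type mice, the strain of the mutant mice, the design of the allele or the sex of the animals. Retinas of 3 mice were pooled for every array, and p-values measure the spread between such pools, not between animals.

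Cdhr1 read 11.32, 11.36 and 10.98 on the log2 scale in wild type replicates 1 to 3 and 3.94, 4.20 and 4.34 in mutant replicates 1 to 3, in keeping with the labels. The rod genes Pde6a, Pde6b, Gnat1, Nrl and Cnga1 lay above the array median on all 6 arrays. Both arrays of replicate 3 stood apart from the rest: the root mean square deviation from the group mean over all probe sets was 0.24 in wild type replicate 3 and 0.25 in mutant replicate 3, against 0.14 to 0.20 in the other arrays. Values that leaving out 1 array moved most are given without it below. An array cannot tell fewer cells of a type from less RNA per cell.

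Genes that inflammation is known to induce make up much of the set, and the promoters of 4 of them, all on chromosome 5, are shown because these are the members in which a cytokine response would be looked for. The sequences are the 250 bases before the transcription start, from RefSeq in GRCm38.p6. For Cxcl1, Cxcl2 and Cxcl3 the capitals mark GGGNATTTC, a form of the site bound by NF-kappaB. For Cxcl10 they mark another form of that site, GGGNNTTCC, and GAAANNGAA, a form of the interferon response element. Both strands were searched. Forms other than these were not marked, so a sequence can hold other forms of either site in lower case.
Cxcl1, chr5:90890995-90891244, plus strand: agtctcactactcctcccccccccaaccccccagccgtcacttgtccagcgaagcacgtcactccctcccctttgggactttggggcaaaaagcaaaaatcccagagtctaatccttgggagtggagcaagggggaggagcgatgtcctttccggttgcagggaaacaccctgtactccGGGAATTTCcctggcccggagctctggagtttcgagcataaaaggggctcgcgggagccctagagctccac
Cxcl2, chr5:90903649-90903898, plus strand: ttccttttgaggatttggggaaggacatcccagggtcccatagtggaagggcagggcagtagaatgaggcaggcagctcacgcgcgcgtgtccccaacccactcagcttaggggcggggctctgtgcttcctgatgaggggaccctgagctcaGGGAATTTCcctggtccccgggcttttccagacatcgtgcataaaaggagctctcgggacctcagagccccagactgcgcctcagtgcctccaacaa
Cxcl3, chr5:90785851-90786100, plus strand: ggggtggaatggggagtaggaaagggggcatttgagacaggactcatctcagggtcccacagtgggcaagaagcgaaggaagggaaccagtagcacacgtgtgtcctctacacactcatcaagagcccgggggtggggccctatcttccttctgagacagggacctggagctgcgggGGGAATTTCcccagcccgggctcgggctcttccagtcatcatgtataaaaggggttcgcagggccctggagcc
Cxcl10, chr5:92348890-92349139, minus strand: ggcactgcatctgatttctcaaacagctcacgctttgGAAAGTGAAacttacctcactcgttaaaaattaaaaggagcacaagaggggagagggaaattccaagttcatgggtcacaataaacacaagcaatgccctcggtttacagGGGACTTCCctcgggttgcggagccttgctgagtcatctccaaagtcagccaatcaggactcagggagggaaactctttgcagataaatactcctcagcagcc
The site ends 62 bases before the start in Cxcl1, 88 bases before it in Cxcl2 and 64 bases before it in Cxcl3. In Cxcl10 the sites end 94 and 204 bases before it. RefSeq promoters were matched for 33 of the 46 genes (37 promoters of 300 bases, 250 before to 50 after the start). GGGNATTTC was found in 5 of these 37, those of Cxcl1, Cxcl2, Cxcl3, Cxcl9 and Ccr3, and in 0.947% of all 32851 promoters. GGGNNTTCC was found in 6 of the 37 and in 5.82% of all promoters. GAAANNGAA was also found in 6 of the 37, among them Cxcl9, Cxcl10 and Cxcl14, and in 8.56% of all. A STAT site, TTCNNNGAA, was found in 4 of the 37 and in 8.30% of all, and a C/EBP site, TTGCNNAA, in 3 of the 37 and in 10.8% of all. A match describes the letters of the window and not a bound site.

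Fewer chemokine and receptor genes lay above the array median than genes in general. The array median is the middle value of all probe sets of an array, between 4.74 and 4.79 on the log2 scale, and a value near or below it cannot be told from background here. Of the 46 genes, 14 (30.4%) were above it on all 6 arrays, 8 on some arrays and 24 on none, while 60.8% of all 18193 genes were above it on all 6. The 14 were the CXC ligands Cxcl1, Cxcl12, Cxcl13, Cxcl14, Cxcl16 and Cxcl17, the CC ligands Ccl4, Ccl8, Ccl20, Ccl24 and Ccl25, and the receptors Ccr2, Ccr10 and Cxcr2. By class, 6 of 13 CXC ligands, 5 of 18 CC ligands, 2 of 10 CC receptors and 1 of 5 CXC receptors were among them. Cxcl16 and Ccl25 each had a second probe set above the median on no array. The second probe set of Cxcl13 was above it on 1 array, that of Cxcl14 on 4 and the third of Cxcl12 on 5. Those of Cxcl1 and Ccr2 are given below. Among the 24 that were never above the median were Ccl2, Ccl3, Ccl7, Cxcl9, Cxcl10 and Cxcr4. The choice of reference matters: against the higher median of all genes at their brightest probe sets, 6 of the 46 lay above on every array.

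**Figure D1:**
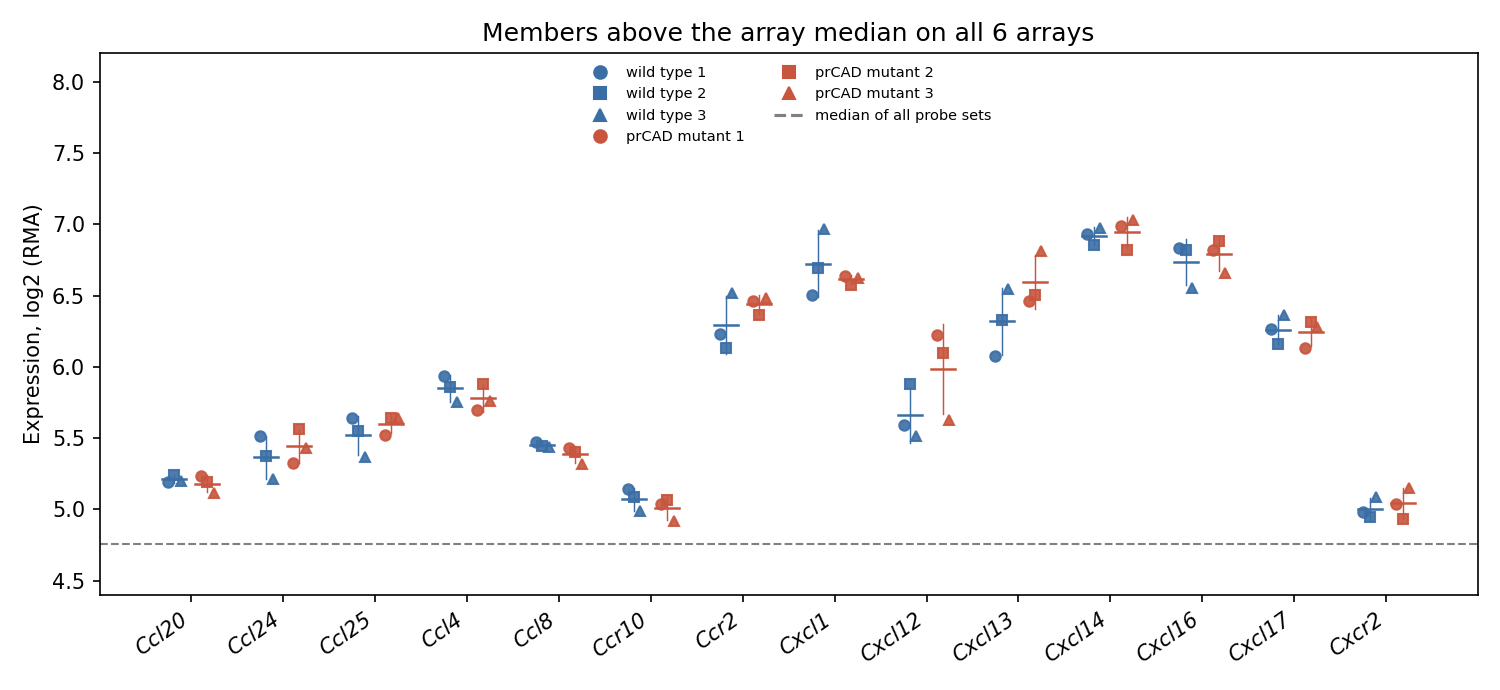
Expression (log2, RMA) of the 14 genes above the array median on all 6 arrays, with 1 point per array (wild type blue, prCAD mutant red; circle, square and triangle are replicates 1, 2 and 3); horizontal bars are group means, vertical bars 1 SD (n = 3), and the dashed line is the median of all probe sets. The groups overlap in every gene but Ccl8, whose 3 mutant arrays lie just below the 3 wild type arrays.

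No chemokine or receptor passed the test between mutant and wild type retina. By limma over all 45037 probe sets, 0 of 46 genes were called at an adjusted p under 0.05, where 0.0165% of all genes and 0.0111% of all probe sets were called, and so were 0 of the 70 member probe sets. At an unadjusted p under 0.05 there was 1 of 46 (2.17%), Cxcr3, against 3.42% of all genes, and there were 3 of the 70 probe sets (4.29%), against 3.02% of all probe sets. With the replicate number as a block 0 of 46 were called, where 0.044% of all genes and 0.0333% of all probe sets were. Unadjusted, 4 of 46 then passed (8.70%, against 7.44% of all genes): Ccl27a, Cxcl12, Cxcl13 and Cxcr3. The median difference of the 46, mutant minus wild type, was 0.05 (quartiles -0.01 and 0.12), beside 0.02 for all genes, and within the pairs of same-numbered arrays it was 0.10, 0.04 and 0.01. Of the 46, 31 lay higher and 15 lower in mutant retina, while 10621 of all genes lay higher and 7572 lower. The call changed with 1 array: without wild type replicate 3, Ccl27a passed (adjusted p = 0.0382), as described with that gene. The share of all genes called without that array is not given here.

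The intervals show how large a difference the arrays leave possible. The 95% intervals are moderated, for each gene alone, and from the fit without the replicate block. For 40 of the 46 genes the interval of the difference lay within 0.5 of 0 on the log2 scale, and for 45 within 1. Of all genes, 76.6% had an interval within 0.5. The 6 genes with wider reach were Ccl27a, Cxcl12, Cxcl13, Cxcr3, Ccr9 and Cxcl9. An interval of a dim probe set bounds the difference in signal, which can be smaller than the difference in transcript.

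**Figure D2:**
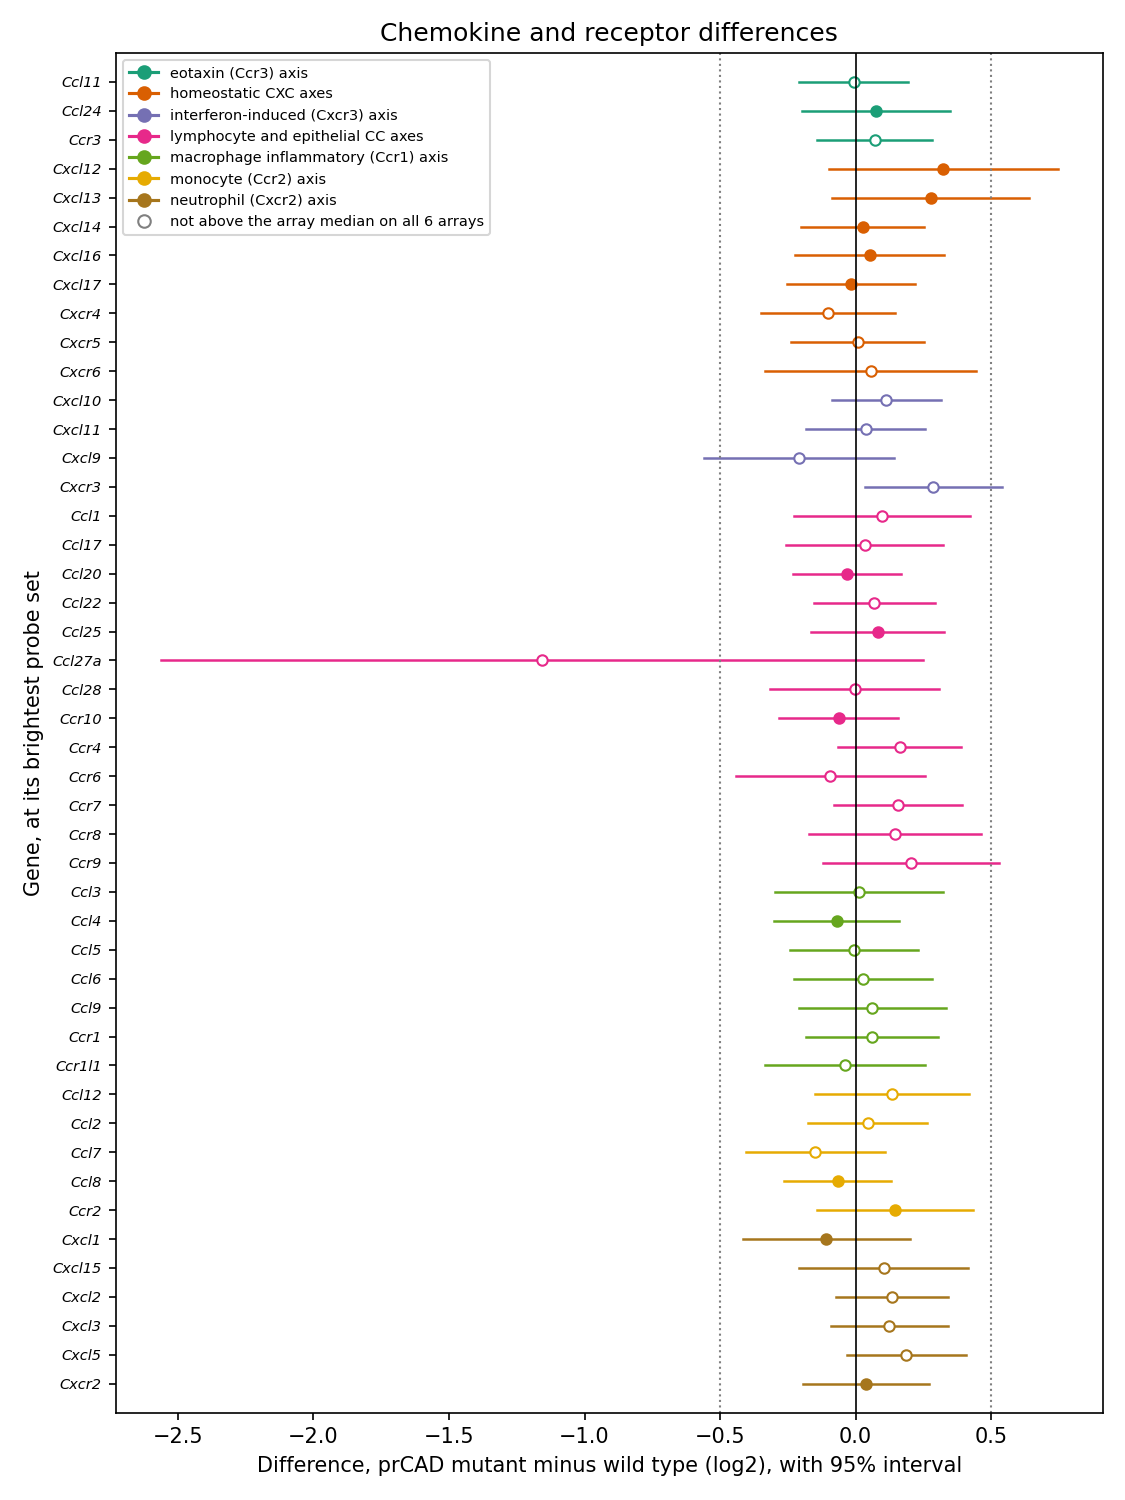
Difference between prCAD mutant and wild type retina (log2) for all 46 genes at their brightest probe sets, with 95% intervals from limma; colours mark the ligand and receptor groups, open symbols are genes not above the array median on all 6 arrays, and dotted lines stand at -0.5 and 0.5. In this fit, with group as the only term, every interval but that of Cxcr3 includes 0, and that of Ccl27a reaches from -2.56 to 0.25. In limma with the replicate block, Ccl27a, Cxcl12, Cxcl13 and Cxcr3 had an unadjusted p under 0.05.

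The groups did not overlap in 7 genes with mutant arrays higher (15.2% of the 46, against 5.89% of all genes) and in 1 gene with mutant arrays lower (2.17%, against 2.88%). The 7 were Cxcr3, Ccr4, Ccr7, Cxcl2, Cxcl3, Cxcl5 and Cxcl10, of which Ccr4 was above the array median on some arrays and the other 6 on none. Their differences ran from 0.11 in Cxcl10 to 0.29 in Cxcr3. The 1 lower gene was Ccl8, at -0.07.

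The neutrophil-attracting ligands Cxcl1, Cxcl2, Cxcl3, Cxcl5 and Cxcl15 and their main receptor Cxcr2 did not pass the test. Cxcl1, the mouse counterpart of the GRO chemokines, read 6.50, 6.69 and 6.97 in wild type and 6.64, 6.58 and 6.62 in mutant arrays. The wild type arrays enclosed the mutant ones, and the difference was -0.11 (SE 0.13, 95% interval -0.42 to 0.20). Its sign rested on wild type replicate 3, the highest array: without it the difference was 0.02. Of 3 Cxcl1 probe sets 2 were above the array median on all arrays and the other on none, and they differed by -0.11, -0.08 and -0.01. The 2 bright ones end in _x_at and _s_at, the maker's marks for probes that can match other transcripts.

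Cxcl5, an epithelial neutrophil attractant, read 2.35, 2.29 and 2.49 in wild type and 2.53, 2.60 and 2.55 in mutant arrays. All 3 mutant arrays were higher, at a level far under the array median, and the difference was 0.19 (SE 0.09, adjusted p = 1.00). Cxcl2 read 2.76, 2.65 and 2.61 against 2.76, 2.81 and 2.84, a difference of 0.13 (SE 0.09). Cxcr2, the receptor these ligands share, read 4.98, 4.94 and 5.09 in wild type and 5.04, 4.93 and 5.15 in mutant arrays. It overlapped between groups (difference 0.04, 95% interval -0.19 to 0.27). Cxcl3 differed by 0.12 and Cxcl15, a lung neutrophil attractant, by 0.10. The intervals of all 4 genes whose promoters are printed above lay within 0.5 of 0. Cxcl2, Cxcl3 and Cxcl10 were above the array median on no array, so their intervals bound only signal near background. That of Cxcl1 is from its _x_at probe set.

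Of the interferon-induced ligands Cxcl9, Cxcl10 and Cxcl11 and their receptor Cxcr3, a receptor of activated T cells, none was above the median on any array. Cxcr3 read 4.35, 4.25 and 4.04 in wild type and 4.46, 4.55 and 4.49 in mutant arrays, so every mutant array was higher. The difference was 0.29 (SE 0.11, 95% interval 0.03 to 0.54), with an unadjusted p of 0.0319 and an adjusted p of 1.00, and it was 0.11, 0.30 and 0.45 within the pairs. Cxcl9 read 3.50, 3.75 and 4.04 against 3.62, 3.43 and 3.61. It overlapped, with its highest value in wild type replicate 3 (difference -0.21, SE 0.15, and -0.07 without that array). Cxcl10 differed by 0.11 (95% interval -0.09 to 0.31) and Cxcl11 by 0.04.

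The monocyte chemoattractant family, Ccl2, Ccl7, Ccl8 and Ccl12, and the monocyte receptor Ccr2 likewise gave no call. Ccl8 read 5.47, 5.44 and 5.44 in wild type and 5.43, 5.40 and 5.32 in mutant arrays. The mutant arrays lay lower by less than the width of the interval (difference -0.07, 95% interval -0.26 to 0.13). Ccl2, the ligand best known from injured retina, differed by 0.04 (95% interval -0.18 to 0.26), with all arrays between 3.75 and 3.94. Ccl7 read 4.01, 3.85 and 3.89 against 3.59, 3.85 and 3.85, a difference of -0.15 (SE 0.11) in overlapping groups. Ccr2 read 6.23, 6.13 and 6.52 in wild type and 6.46, 6.36 and 6.49 in mutant arrays. These overlapped through wild type replicate 3 (difference 0.14, SE 0.12). The difference was 0.26 without that array, where the unadjusted p was under 0.05, and 0.06 without wild type replicate 2, and it passed the adjusted threshold in neither. Only 1 of 4 Ccr2 probe sets was above the array median, and the other 3 were above it on no array, differing by -0.06, -0.03 and 0.09.

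In the macrophage inflammatory group, whose ligands Ccl3, Ccl4, Ccl5, Ccl6 and Ccl9 draw macrophages and T cells and whose receptors here are Ccr1 and its relative Ccr1l1, differences ran from -0.07 to 0.06. Ccl4 read 5.94, 5.86 and 5.75 in wild type and 5.70, 5.88 and 5.76 in mutant arrays. The groups overlapped (difference -0.07, 95% interval -0.30 to 0.16). All 7 intervals of this group lay within 0.5 of 0. Among the eotaxins, which attract eosinophils through Ccr3, Ccl24 read 5.51, 5.37 and 5.21 against 5.33, 5.56 and 5.43. It differed by 0.07 (SE 0.11), and by -0.002 without wild type replicate 3, its lowest array. Ccl11 differed by -0.01 and Ccr3 by 0.07.

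The CXC chemokines that tissues make without inflammation held 5 of the 14 genes above the median. Cxcl14, an epithelial and neural chemokine, read 6.93, 6.85 and 6.97 in wild type and 6.98, 6.82 and 7.03 in mutant arrays, a difference of 0.03 (95% interval -0.20 to 0.25). Its other probe set differed by -0.23 (SE 0.29). Cxcl16, a membrane-anchored ligand of Cxcr6, read 6.83, 6.82 and 6.55 against 6.82, 6.88 and 6.66. It was lowest in replicate 3 of both groups and differed by 0.05 (SE 0.12). Cxcl17, a mucosal chemokine, read 6.26, 6.16 and 6.36 against 6.13, 6.32 and 6.28, a difference of -0.02 (SE 0.10). The receptors Cxcr4, Cxcr5 and Cxcr6, which bind Cxcl12, Cxcl13 and Cxcl16, were never above the median. Cxcr4 read 3.08, 3.05 and 2.95 against 2.97, 3.04 and 2.77, differing by -0.10 (SE 0.10).

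Cxcl13, the B cell attractant, was higher in the mutant array of each pair at both of its probe sets, without passing the test. At the brightest it read 6.08, 6.33 and 6.55 in wild type and 6.46, 6.51 and 6.81 in mutant arrays. The groups overlapped, and the difference was 0.28 (SE 0.15, adjusted p = 1.00, or adjusted p = 0.598 with the replicate block), with 0.39, 0.18 and 0.27 within the pairs. The dimmer probe set, singled out after its values were seen, read 4.14, 4.55 and 3.75 against 4.65, 4.68 and 4.84. There the groups did not overlap and differed by 0.57 (SE 0.20, adjusted p = 1.00), with the largest pair difference, 1.09, in replicate 3. Leaving out single arrays, the brightest probe set differed by 0.16 (without wild type replicate 1) to 0.39 (without wild type replicate 3).

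The 3 probe sets of Cxcl12, a ligand that holds and guides cells bearing Cxcr4, went both ways. The brightest read 5.59, 5.88 and 5.52 in wild type and 6.22, 6.10 and 5.63 in mutant arrays, with a difference of 0.32 (SE 0.18). Without single arrays that difference ran from 0.20 (without mutant replicate 1) to 0.50 (without mutant replicate 3). The second, singled out after its values were seen, read 6.08, 5.91 and 5.78 against 5.49, 5.75 and 5.47, a difference of -0.36 (SE 0.12), with every mutant array lower. The third differed by 0.15 (SE 0.11). None of the 3 passed (adjusted p = 1.00 each), and the mean of the 3 probe sets differed by 0.04. The sign of the Cxcl12 difference therefore depends on the probe set. Of 16 members with several probe sets, 10 had differences of both signs and 6 of 1 sign.

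**Figure D3:**
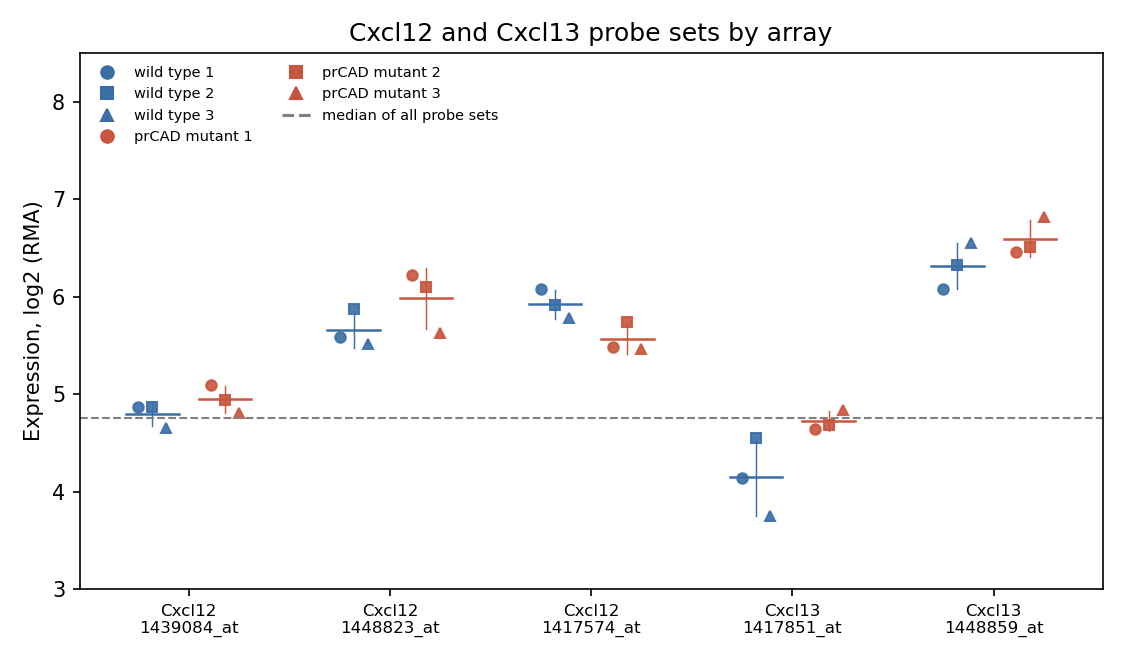
Expression (log2, RMA) at the 3 Cxcl12 and 2 Cxcl13 probe sets, 1 point per array, with group means, 1 SD (n = 3) and the median of all probe sets (dashed). The second Cxcl12 probe set is lower in mutant retina by 0.36 while the brightest is higher by 0.32, and both Cxcl13 probe sets are higher, by 0.28 and 0.57.

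The lymphocyte and epithelial CC group held the widest difference of the set, in Ccl27a, a skin chemokine that binds Ccr10. Ccl27a read 5.997, 5.998 and 3.67 in wild type and 4.03, 4.23 and 3.93 in mutant arrays. Wild type replicates 1 and 2 were high, and wild type replicate 3 lay below all 3 mutant arrays. The difference was -1.16 (SE 0.59, 95% interval -2.56 to 0.25, adjusted p = 1.00), and within the pairs it was -1.96, -1.77 and 0.26. Without wild type replicate 3 it was -1.93 (adjusted p = 0.0382) and without both arrays of replicate 3 it was -1.86 (adjusted p = 0.0155), the only settings tried in which any of the 46 passed. With array weights it was -1.58 (adjusted p = 0.278). The share of all genes called when arrays were left out is not given here.

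Both other probe sets that read Ccl27a, outside the 46 because they also carry the symbols of near-identical gene copies such as Ccl27b, had the same division of arrays. One, ending in _s_at, read 6.17, 5.96 and 4.50 in wild type and 4.76, 4.55 and 4.55 in mutant arrays. The other, ending in _a_at, read 7.17, 6.93 and 5.13 against 5.67, 5.37 and 5.36. On all 3, wild type replicates 1 and 2 lay above the other 4 arrays, by at least 1.76, 1.201 and 1.26. That gap ranked 2, 5 and 4 among 45037 probe sets, a rank taken after the values were seen. Cdhr1 in wild type replicate 3 was at the wild type level (10.98). Why this array read with the mutant arrays at the Ccl27a probe sets was not tested. The probe set of the 46 ends in _x_at and, like the other 2, can match near-identical transcripts, so signal of Ccl27a and its copies cannot be told apart on any of the 3. Without probe sets ending in _x_at, _s_at or _a_at, Ccl27a had no probe set left.

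**Figure D4:**
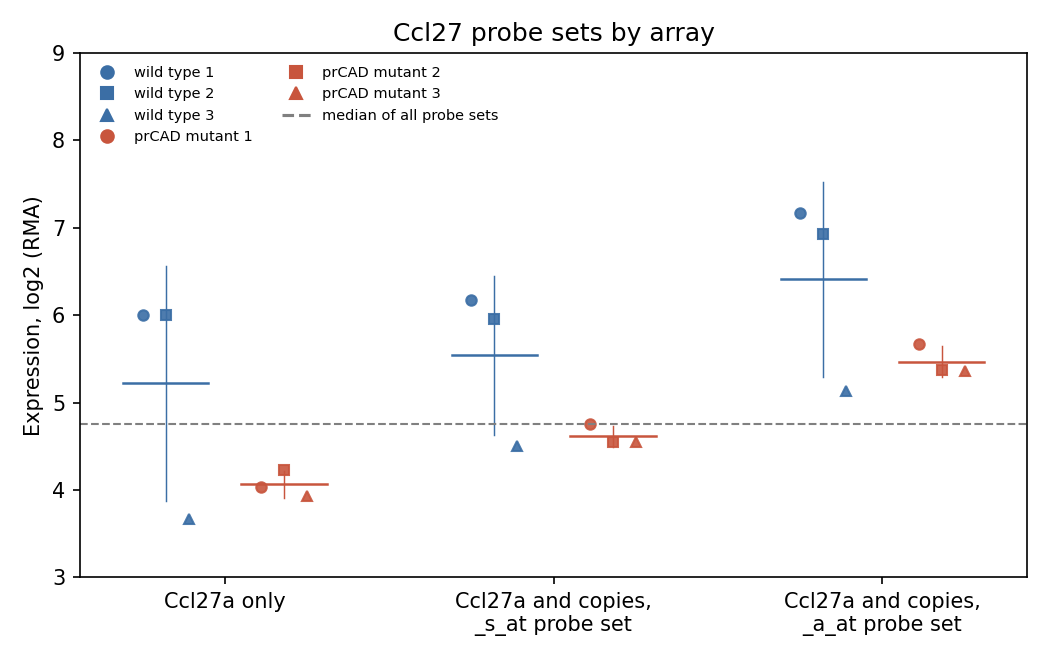
Expression (log2, RMA) at the 3 probe sets that read Ccl27a, 1 point per array, with group means, 1 SD (n = 3) and the median of all probe sets (dashed). Wild type replicates 1 and 2 lie between 5.96 and 7.17, at least 1.201 above the other 4 arrays of the same probe set, and wild type replicate 3 lies with the mutant arrays.

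None of the other 12 genes of that group passed the test under any setting tried. Ccr10, which Ccl27a and Ccl28 activate, read 5.14, 5.08 and 4.99 in wild type and 5.04, 5.07 and 4.92 in mutant arrays (difference -0.06, 95% interval -0.28 to 0.16). Ccl28, a mucosal ligand of the same receptor, differed by -0.003 (SE 0.13). Ccl25, the thymic and gut ligand of Ccr9, read 5.64, 5.55 and 5.37 against 5.53, 5.64 and 5.64. It overlapped and differed by 0.08 (SE 0.10), and by 0.007 without wild type replicate 3, its lowest array.

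Ccr9 itself read 3.60, 3.41 and 3.44 in wild type and 3.96, 3.53 and 3.57 in mutant arrays, higher by 0.20 (SE 0.14) at its brightest probe set and between -0.08 and 0.06 at its other 4. Mutant replicate 1 was its highest array, and without it the difference was 0.07. Ccl20, the ligand of Ccr6, read 5.19, 5.24 and 5.20 against 5.24, 5.19 and 5.12 (difference -0.03, SE 0.08). Ccr4, the receptor of Ccl17 and Ccl22 on T cells, read 4.77, 4.602 and 4.74 against 4.97, 4.81 and 4.83, so each mutant array was higher, by 0.16 on average (SE 0.10). Ccr7, which guides lymphocytes to lymph nodes, read 2.99, 3.11 and 3.09 against 3.14, 3.17 and 3.36 (difference 0.16, SE 0.10). Neither Ccr4 nor Ccr7 passed (adjusted p = 1.00 each).

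Genes of the chemokine system with other names, taken with genes upstream of them, gave no call either. Over all probe sets 0 of 89 measured genes passed, in either direction, where 0.0165% of all genes did. An unadjusted p under 0.05 was found in 8 (8.99%), against 3.42% of all genes. Of these 8, 5 were among 31 upstream genes, 2 among 22 receptor signalling genes and 1 among 10 other ligands and relatives. The lists were chosen with earlier results of these data known. Among 10 other ligands and relatives the median difference was -0.01. Cx3cl1, the neuronal ligand of the microglial receptor Cx3cr1, was above the array median on all arrays and differed by 0.05 (SE 0.16). Cmtm7, of a chemokine-like family, differed by -0.26 (SE 0.10). Among 12 other receptors the median was 0.02, with Cx3cr1 at 0.17 (SE 0.11) and the scavenging receptor Ackr1 at 0.14 (SE 0.14).

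Of 22 receptor signalling genes, with a median of 0.04, Stat3 differed by 1.08 (SE 0.44), highest in mutant replicate 3 (9.38), and Plcb2, a phospholipase, by 0.21 (SE 0.08). The 14 genes of chemokine presentation and turnover had a median of 0.03, and their smallest p was that of Mmp3, a matrix protease, at 0.17 (SE 0.10). The 31 genes upstream of chemokines, cytokines with their receptors and transcription factors, had a median of 0.11. Osmr, the oncostatin M receptor, differed by 1.77 (SE 0.20, adjusted p = 0.160) and passed with array weights (adjusted p = 0.0375). Tnfaip3, a feedback inhibitor of NF-kappaB, differed by -0.61 (SE 0.10, adjusted p = 0.479), and Tlr4, the endotoxin receptor, by 0.35 (SE 0.10).

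Markers of the cells that carry or make chemokines gave no call either, and their part in any of these values was not tested. Of 10 microglia and macrophage markers 9 lay higher in mutant retina, where 10621 of all 18193 genes did. Of these markers 0 passed, where 0.0165% of all genes did. C1qa differed by 0.55 (SE 0.13), Cd68 by 0.37 (SE 0.17), Csf1r by 0.35 (SE 0.12) and Cx3cr1 by 0.17. Aif1 differed by 0.04, Ptprc by 0.01 and P2ry12 by -0.01. In 3 of the 10 (30%) every mutant array was higher, against 5.89% of all genes. By limma 2 of the 10 (20%) had an unadjusted p under 0.05, against 3.42% of all genes. Of the 10, 3 were above the array median on all 6 arrays, 1 on some and 6 on none. The mean level of the 10 was 4.34 to 4.48 in wild type and 4.53 to 4.67 in mutant arrays. For 9 T, NK and B cell markers the median difference was 0.02 and the mean levels overlapped (4.56 to 4.62 against 4.58 to 4.66). Of these 9, 3 were above the array median on all 6 arrays, Cd3e, Cd4 and Cd8a, and 6 on none, Cd3g, Cd79a and Ms4a1 among them. For Cd3e, a part of the T cell receptor complex, the groups overlapped (difference -0.01, SE 0.08). For 6 monocyte and neutrophil markers the median was 0.10, with mean levels of 4.37 to 4.44 against 4.41 to 4.59. Of these, Lyz2, Camp and Ngp were above the array median on all 6 arrays and S100a8, S100a9 and Lyz1 on none. For 5 mast cell and platelet markers the median was -0.05. For 7 Müller glia and astrocyte markers it was 0.14, with 4 higher and 3 lower in mutant retina. Mean levels of the 7 were 8.44 to 8.85 against 8.98 to 9.04. Gfap, the glial filament of reactive cells, differed by 1.60 (SE 0.32, adjusted p = 0.791) and Vim by 0.63 (SE 0.24). The 3 lower ones were Glul (-0.08), Dkk3 (-0.08) and Rlbp1 (-0.07).

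All 6 pigment epithelium markers lay higher in mutant arrays, with a median difference of 1.04 and mean levels of 5.64 to 6.77 in wild type and 7.35 to 7.76 in mutant arrays, lowest in wild type replicate 3. The 5 lens markers had a median of 0.55, and within the pairs it was 0.05, 0.13 and 1.502. The 5 rod markers had a median of -0.19, the 7 vascular markers of 0.09 and the 3 blood markers of 0.04. None of these markers passed over all probe sets, where 0.0165% of all genes did.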

How the data were processed

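The deposited values are log2 expression levels that the authors computed with RMA, per the submitters' processing notes (no version is named there). Because RMA brings the probe intensities of all arrays to one distribution before probe sets are summarised, a shift in total signal cannot be seen. RNA was prepared with Trizol and a column kit and carried a biotin label, per the labels' protocols. Of 45101 probe sets 64 manufacturer controls were left out. The platform annotation names 34945 probe sets with 1 gene symbol and 932 with several, and 9160 are not named here.

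Groups followed the sample titles. Over probe sets, the departures from the group mean correlated at 0.477, 0.469 and 0.563 between arrays of one number, and 6 of 6 arrays correlated best with their own number, so the numbers were taken as pairs from the data (the labels leave their meaning open). Groups were compared with limma 3.58.1 (R 4.3.3; lmFit, eBayes; group as the only term), p-values were adjusted by Benjamini-Hochberg across the 45037 probe sets, and 0.05 was the threshold. Steps were tested on simulated data with known log2 differences. There limma called 4.6% of differences of 0.5, 80.4% of those of 1 and 98.2% of those of 2. Of the calls, 6.91% were false. A true difference of 0.5 would thus mostly go uncalled. Figures were drawn with matplotlib 3.10.9.

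The members, lists, ligand groups, motifs and shown promoters were chosen with earlier results of these data known, so they are described by counts and medians and no p was computed over a list. The NF-kappaB and interferon motifs were shortened by a letter, and the other NF-kappaB form, GGGNNTTCC, redefined, after a first search had been seen. Named with values are genes above the array median on all 6 arrays, the 8 with the smallest p in each direction, those with non-overlapping groups and a difference of at least 0.3, and up to 4 per list; Ccl2, Ccl11, Ccl28, Ccr3, Cxcl3, Cxcl10, Cxcl11, Cxcl15, Cx3cl1 and the markers of cell types outside that rule were added for their roles, after their values were seen. Of 102 genes in the pathway lists 13 had no probe set with their symbol alone. Alternatives were the replicate block, further normalizations, filters on dim probe sets, variance models, array weights, other choices of probe set and leaving out arrays.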

Additional observations from a re-analysis of the deposited data

How the results depend on the processing

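The count of 0 chemokine and receptor genes past the threshold held under the replicate block (0 of 46), both further normalizations, both filters on dim probe sets, the trend and robust variance model, array weights, both other choices of probe set and an adjusted p under 0.10. It was 1, Ccl27a, without both arrays of replicate 3, and ran from 0 to 1 when single arrays were left out, the 1 again being Ccl27a without wild type replicate 3. The median difference ran from 0.04 to 0.06 without single arrays and was 0.02 when the probe sets of a gene were averaged. The count of other chemokine system genes and genes upstream of them was 0 in every setting but array weights, where it was 1, Osmr. The 14 genes above the array median became 6 against the median of all genes at their brightest probe sets, 18 by the mean of the 6 arrays or by all 3 arrays of at least 1 group, 12 under either other choice of probe set, and 14 to 15 without single arrays. Of 363 values of the 24 named genes under 16 settings, 5 moved by more than the spread between replicates without a call, in Cxcl12, Cxcl14 and Ccr9 with another choice of probe set, and 2 passed, both in Ccl27a. Leaving out a single array turned the sign in 7 of the 24 named genes, Ccl20, Ccl24, Cxcl1, Cxcl14, Cxcl16, Cxcl17 and Cxcr2, whose differences were at most 0.11 in size. With 3 pools a group the standard error of a difference was 0.08 to 0.59, and signal near background limits the 24 genes never above the array median.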

Other observations

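Chemokine genes that lie in near-identical copies on chromosome 4 were read by probe sets with several symbols. The Ccl21 probe set was above the array median on all 6 arrays and read 5.72, 5.70 and 5.64 in wild type and 5.66, 5.69 and 5.70 in mutant arrays, a difference of -0.01 (SE 0.08). The Ccl19 probe set read 4.79, 4.72 and 4.75 against 4.82, 4.78 and 4.49. In Ccl21 wild type replicates 1 and 2 were again the highest arrays, but the 6 arrays lay between 5.64 and 5.72. In Ccl19 they were not.

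Of the 20 named genes nearest to Ccl27a in GRCm38.p6 order, 10 on each side, 4 had wild type replicates 1 and 2 both above the other 4 arrays: Fam219a, Enho, Rpp25l and Galt. The gap was at most 0.15, in Fam219a, against 1.76 in Ccl27a. Gm13306, the next named gene on the other side and a symbol that both several-symbol Ccl27 probe sets also carry, had a probe set of its own, which read 4.78, 4.84 and 5.33 in wild type and 5.17, 4.84 and 5.50 in mutant arrays.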
